A study of Mus musculus with 2 samples.

Results

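The 9 genes described here carry the Hedgehog signal through the gut wall. They are the ligand Ihh, the receptor Ptch1, the ligand-binding inhibitor Hhip, the signal transducer Smo, the transcription factors Gli1, Gli2 and Gli3, and the forkhead factors Foxf1 and Foxl1 of the gut mesenchyme. They were chosen by name out of 31053 genes counted, and were read in every droplet barcode with at least 3000 unique molecular identifiers (UMIs, 1 per captured RNA molecule) of which at most 20% came from mitochondrial genes. This gave 6599 cells in the ApcMin library and 6569 cells in the VApcMinL library.

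The study asked how the stroma around intestinal tumours differs when the epithelium lacks Lef1. Stromal cells of the lamina propria were sorted from the intestine of C57BL/6 mice at 11 weeks of age per the labels (the study's text is not uniform on this age) as negative for DAPI, Ter119, Epcam and CD45, and their RNA was counted by droplet sequencing from its 3′ end. ApcMin mice had the genotype ApcMin/+;Lef1 +/+ and VApcMinL mice the genotype ApcMin/+;Lef1 fl/fl;Villin-Cre, in which Cre under the Villin promoter deletes Lef1 constitutively in the intestinal epithelium. Both genotypes carried the Min allele of Apc, so neither is a tumour-free control, and the stromal cells themselves are not the target of Cre. Each genotype was 1 library, and the number of mice behind a library is not given in the sources used here. Ratios therefore compare these 2 libraries, with no test between genotypes, and every interval covers counting error only.

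Hedgehog proteins of the gut are made by the epithelium and act on the mesenchyme beneath it. Without ligand the receptor PTCH1 keeps SMO silent. Ligand releases SMO, GLI factors then switch on target genes, and Ptch1, Hhip and Gli1 are themselves such targets, so their level is widely used as a reading of the signal in a cell. Foxf1 and Foxl1 are also induced by Hedgehog in gut mesenchyme, and Foxl1 is known for marking subepithelial cells that feed the crypts with Wnt ligands.

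Cells were grouped into classes by clustering without the 9 genes, and classes were named from marker genes. Fibroblast-like cells were 50.7% of ApcMin cells (3348) and 56.0% of VApcMinL cells (3679), in 9 subsets named by their leading genes. The levels given below are the UMIs of a gene per 1000000 UMIs summed over a class (CPM), with an exact Poisson 95% interval. Because 3′ counting captures genes with unequal efficiency, levels are compared between classes and libraries and never between genes.

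The libraries differed in depth and in what the sort let through. Cells had a median of 10849 UMIs in ApcMin and 9111 in VApcMinL, and 18 cell barcodes occurred in both libraries (0.273% and 0.274% of cells). Erythroid-like cells were 20.7% of ApcMin and 5.54% of VApcMinL cells, and epithelial-like cells 0.743% and 5.25%, although the gates should remove both. Epcam had a UMI in 3.77% and 15.8% of all cells. The erythroid-like class of VApcMinL also held gastric gland RNA, so plasma-like cells serve below as the class that should lack the genes. The targeted gene Lef1 stood at 7.56 CPM (22 UMIs, 4.74 to 11.5) in epithelial-like cells of ApcMin and at 1.95 CPM (29 UMIs, 1.30 to 2.79) in those of VApcMinL, but whether the counted 3′ end lies in the deleted part is not given in the sources used here. In T or innate lymphoid-like cells, where the Villin promoter is not active, Lef1 was at 49.8 CPM (36.2 to 66.8) and 21.1 CPM (12.1 to 34.3). The region-specific mesenchyme factors Barx1 and Six2 also moved with the library. At least 1 UMI of either was found in 19.5% of fibroblast-like cells in ApcMin (653) and in 1.30% in VApcMinL (48), and where in the gut each sample was cut is not given in the sources used here.

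Ihh (chr1:74945315-74951672 on the minus strand, GRCm38), the Hedgehog ligand of differentiating enterocytes, was read almost only in the contaminating epithelium. Epithelial-like cells held 94.5% of all its UMIs in ApcMin (188) and 96.9% in VApcMinL (1234). Its level there was 64.6 CPM (55.7 to 74.6) in the 49 cells of ApcMin and 82.8 CPM (78.2 to 87.5) in the 345 cells of VApcMinL, a log2 ratio of 0.36 (0.13 to 0.59). The difference was past its counting interval but under 2-fold. These were deep cells, with a median of 44634 and 41906 UMIs, and Ihh had a UMI in 75.5% and 78.0% of them. Once each cell was thinned to 3000 UMIs the shares were 24.5% and 19.4%.

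The epithelial-like cells of the libraries were not alike. Enterocyte genes summed to 22741 CPM in ApcMin and 51642 CPM in VApcMinL, gastric genes to 1062 and 44.5 CPM, and genes of the crypt base and transit-amplifying cells to 283 and 48.3 CPM. Among cells with at least as many enterocyte as gastric UMIs, Ihh was at 80.0 CPM (68.2 to 93.2, 43 cells) in ApcMin and at 85.7 CPM (81.0 to 90.7, 338 cells) in VApcMinL, with overlapping intervals. Cells with more gastric UMIs read lower in both libraries, at 28.7 CPM (18.6 to 42.4, 6 cells) and 22.9 CPM (13.1 to 37.2, 7 cells). The mix of epithelial kinds thus moved with the library beside the level of Ihh, and its part in that level was not tested further. Enterocyte-kind cells with a UMI of the proliferation gene Mki67 had Ihh at 45.0 CPM (29.7 to 65.5, 8 cells) in ApcMin and 104 CPM (88.6 to 121, 29 cells) in VApcMinL. The same kind of cells without one stood at 94.6 CPM (79.3 to 112) and 83.5 CPM (78.5 to 88.7). The split by kind and by Mki67 was made after seeing the values.

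In fibroblast-like cells Ihh amounted to 6 UMIs in ApcMin (0.129 CPM) and 19 UMIs in VApcMinL (0.458 CPM). The empty droplets, which hold free RNA, had 4.98 and 27.1 CPM. The log2 ratio of 1.83 (0.45 to 3.44) rests on these few UMIs, and the 6 enterocyte genes moved with it in the same cells, from 18.3 to 303 CPM in sum. Their part in it was not tested. Of the other ligands, Shh had 0 UMIs in ApcMin cells and Dhh, the ligand of Schwann cells, was highest in glial-like cells at 10.2 CPM (2 UMIs) and 14.5 CPM (16 UMIs).

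Ptch1 (chr13:63508328-63573598, minus strand), the receptor and the broadest target gene, was concentrated in a few fibroblast subsets. Mmp10 fibroblasts read 752 CPM (702 to 804) in ApcMin and 1022 CPM (986 to 1059) in VApcMinL. Bmp5 Bmp7 fibroblasts followed with 559 CPM (488 to 637) and 665 CPM (609 to 725). These subsets stood above every other class in both libraries, Mmp10 above Bmp5 Bmp7 by more than the interval, and a Ptch1 UMI was found in 95.8% and 97.9% of Mmp10 cells.

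Behind them the order of the classes was less sharp. In ApcMin the next classes were Adamdec1 fibroblasts at 211 CPM (199 to 224), smooth muscle-like cells at 169 CPM (122 to 228) and Grem1 Ackr4 fibroblasts at 147 CPM (138 to 156), where neighbours did not differ beyond their intervals. In VApcMinL Wif1 Itgbl1 fibroblasts at 306 CPM (281 to 332), smooth muscle-like cells at 291 CPM (247 to 340.4) and Adamdec1 fibroblasts at 286 CPM (275 to 298) could not be ordered, with Grem1 Ackr4 fibroblasts below them at 149.9 CPM (141 to 159). The lowest subset was the same in each library: Lpl Penk Plau fibroblasts had 23.8 CPM (21.0 to 27.0) and 32.1 CPM (28.0 to 36.7). Plasma-like cells had 3.16 and 7.55 CPM. Ptch1 thus ranged over more than an order of magnitude among fibroblasts, all of it above the plasma-like level. The empty droplets, which hold free RNA, had 29.0 and 39.9 CPM of Ptch1. These are levels within free RNA alone, and how much of the Lpl Penk Plau level came from free RNA was not tested.

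**Figure D1:**
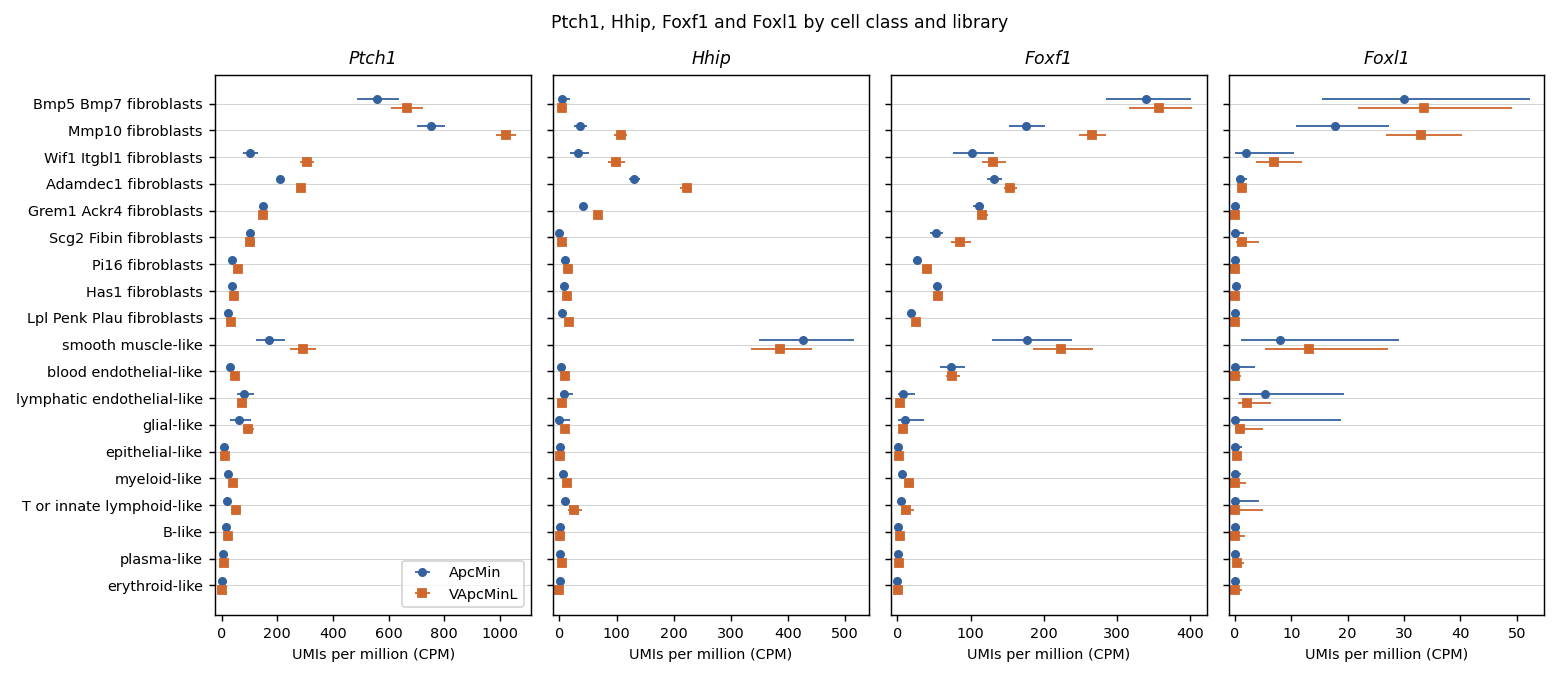
Levels of Ptch1, Hhip, Foxf1 and Foxl1 in CPM on linear axes, 1 panel per gene, in each of 19 cell classes (rows). Blue circles stand for ApcMin and orange squares for VApcMinL, with bars for the exact Poisson 95% interval. Ptch1 peaks in Mmp10 fibroblasts at 752 and 1022 CPM, Hhip in smooth muscle-like cells at 426 and 386 CPM, and Foxf1 in Bmp5 Bmp7 fibroblasts at 339 and 357 CPM.

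Over all fibroblast-like cells Ptch1 had 97.0 CPM (4504 UMIs, 94.2 to 99.9) in ApcMin and 207 CPM (8567 UMIs, 202 to 211) in VApcMinL, a log2 ratio of 1.09 (1.04 to 1.14). A UMI was seen in 45.6% and 57.8% of these cells at median depths of 13319 and 10660 UMIs, and in 21.4% and 34.2% with each cell thinned to 3000 UMIs. In plasma-like cells the same shares were 1.89% and 3.51%, or 0.211% and 0.923% in thinned cells. Mmp10 fibroblasts made up 17.3% of all Ptch1 UMIs in ApcMin and 31.9% in VApcMinL.

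Hhip (chr8:79965851-80058006, minus strand) encodes a membrane protein that binds Hedgehog ligands and keeps them from the receptor. Its highest class was the smooth muscle-like one, at 426 CPM (349 to 516, 106 UMIs) in the 40 cells of ApcMin and 386 CPM (336 to 443, 206 UMIs) in the 69 cells of VApcMinL. Only 12.5% and 26.1% of these cells had a UMI, so few cells carried many molecules each. Adamdec1 fibroblasts were next with 131 CPM (121 to 141) in ApcMin and 223 CPM (212 to 233) in VApcMinL, and had a Hhip UMI in 54.0% and 60.7% of cells. Mmp10 fibroblasts had 35.4 CPM (25.3 to 48.2) and 107 CPM (95.3 to 119). The Bmp5 Bmp7 subset, next to the highest for Ptch1, was nearly without Hhip, at 4.99 CPM (2 UMIs) and 3.87 CPM (3 UMIs).

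The smooth muscle-like class joined cells with visceral smooth muscle genes and cells with pericyte genes, and was split after the values were seen. All Hhip UMIs lay in the cells with more smooth muscle than pericyte UMIs, at 887 CPM in ApcMin (14 cells, 5 with a Hhip UMI) and 615 CPM in VApcMinL (35 cells, 18 with one). None was found in the other 26 and 34 cells. Ptch1 read 293 and 370.1 CPM in the smooth muscle kind and 54.2 and 157 CPM in the pericyte kind. The pericyte values rest on 7 UMIs in 6 cells of ApcMin and 31 UMIs in 6 cells of VApcMinL. Of those 31 UMIs 24 lay in 1 cell. Foxf1 read 167 and 212 CPM in the smooth muscle kind and 186 and 242 CPM in the pericyte kind, so it did not separate the kinds as Hhip did.

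**Figure D2:**
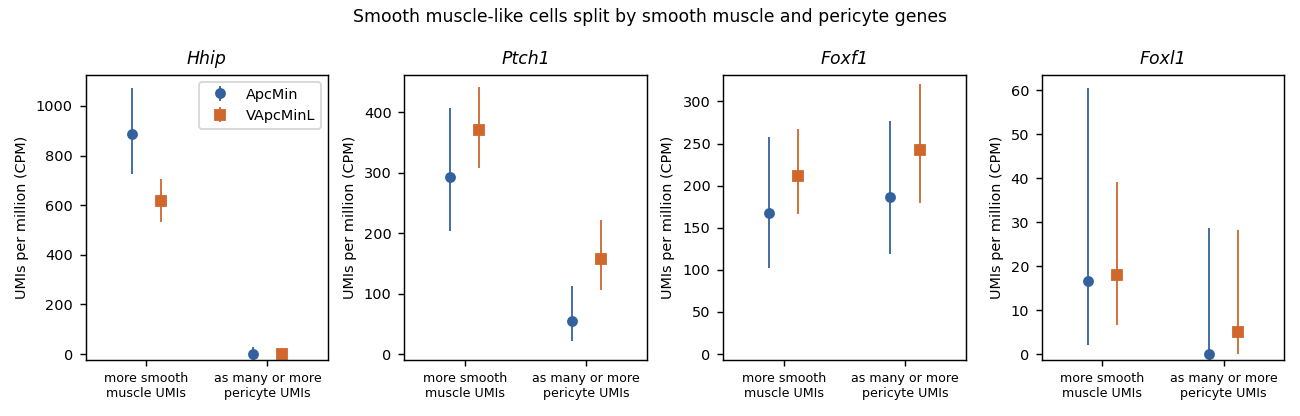
Levels of Hhip, Ptch1, Foxf1 and Foxl1 in CPM (linear axes) in smooth muscle-like cells with more smooth muscle than pericyte UMIs and in those with as many or more pericyte UMIs. Blue circles are ApcMin and orange squares VApcMinL, with exact Poisson 95% intervals. Hhip is at 887 and 615 CPM in the smooth muscle kind and has 0 UMIs in the pericyte kind of both libraries.

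Over all fibroblast-like cells Hhip had 26.8 CPM (1244 UMIs) in ApcMin and 74.4 CPM (3083 UMIs) in VApcMinL, a log2 ratio of 1.47 (1.38 to 1.57). Cells with a UMI were 12.4% and 25.8% of these, and thinned cells 5.05% and 15.1%. In plasma-like cells Hhip stood at 0.243 CPM (1 UMI) in ApcMin and at 4.35 CPM in VApcMinL, where its 15 UMIs lay in only 3 cells.

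The promoters of Ptch1 and Hhip, whose levels moved furthest with the library among the well-counted members, and that of Gli2, which carries the shorter core of the GLI motif, are shown as the 250 bases before the start in RefSeq (GRCm38.p6), 5′ to 3′ on the strand of the gene. They are chr13:63565736-63565985 on the minus strand for Ptch1 (a start inside the longest gene model), chr8:80058009-80058258 on the minus strand for Hhip and chr1:119053620-119053869 on the minus strand for Gli2. Capitals mark the core GGGTGGT of the motif, 205 bases before the start of Gli2.
Ptch1: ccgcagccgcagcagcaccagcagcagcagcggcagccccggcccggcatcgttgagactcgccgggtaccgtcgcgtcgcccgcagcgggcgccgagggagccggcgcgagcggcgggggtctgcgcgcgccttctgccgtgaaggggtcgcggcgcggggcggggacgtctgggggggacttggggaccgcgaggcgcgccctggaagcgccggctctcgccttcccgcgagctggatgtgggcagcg
Hhip: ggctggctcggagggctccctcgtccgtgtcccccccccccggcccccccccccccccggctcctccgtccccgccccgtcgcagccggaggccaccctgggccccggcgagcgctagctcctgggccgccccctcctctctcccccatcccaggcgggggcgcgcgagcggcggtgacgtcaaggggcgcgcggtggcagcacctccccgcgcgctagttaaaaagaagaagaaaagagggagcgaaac
Gli2: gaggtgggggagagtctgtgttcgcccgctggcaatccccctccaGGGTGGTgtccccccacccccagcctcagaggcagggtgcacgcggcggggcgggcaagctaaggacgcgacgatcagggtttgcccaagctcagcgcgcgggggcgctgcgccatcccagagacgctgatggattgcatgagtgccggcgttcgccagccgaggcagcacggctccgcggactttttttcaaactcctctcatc

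These stretches held 41 pairs of C followed by G for Ptch1, 28 for Hhip and 22 for Gli2, against a median of 6.00 over all 32851 mouse promoters of the table. Their G and C content was 78.4%, 76.0% and 67.2%, against a median of 52.4%. The GLI motif GACCACCC, read on both strands in 300 bases around the start, was in 265 promoters of the table (0.807%) and in 0 of the 6 members with a promoter there. Its core ACCACCC, which every full match also contains, was in 1514 promoters (4.61%) and in 1 of those 6 members, Gli2. A match is a description of letters, and none of these windows covers a distant enhancer.

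Smo (chr6:29735503-29761365, plus strand), which passes the signal into the cell, was spread more evenly than the targets. Fibroblast subsets ranged from 37.8 CPM (34.2 to 41.8) in Has1 to 79.9 CPM (54.6 to 113) in Bmp5 Bmp7 fibroblasts in ApcMin. In VApcMinL they ranged from 39.8 CPM (35.4 to 44.7) in Has1 to 79.6 CPM (69.9 to 90.4) in Mmp10 fibroblasts. Mesothelial-like cells, the outer lining of the gut, were the highest class at 192 CPM (47 UMIs in 7 cells) and 196 CPM (115 UMIs in 35 cells), above the next class by more than the interval. Fibroblast-like cells as a whole had Smo at 53.3 and 55.6 CPM, a log2 ratio of 0.06 (-0.02 to 0.14) whose interval covers no difference. Epithelial-like cells had 10.7 CPM (31 UMIs) and 3.49 CPM (52 UMIs), with 20 of the ApcMin UMIs in the 6 cells of gastric kind. In enterocyte-kind cells Smo had 5.40 CPM (2.69 to 9.66) and 2.82 CPM (2.01 to 3.83), with overlapping intervals.

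The Gli factors were not laid out alike. Gli1 (chr10:127329882-127341974, minus strand), the activator that is itself a target, was at 55.8 CPM (42.9 to 71.4) in Mmp10 and 49.9 CPM (30.5 to 77.1) in Bmp5 Bmp7 fibroblasts of ApcMin, and at 52.0 CPM (44.1 to 60.8) and 30.9 CPM (19.8 to 46.0) in those of VApcMinL. Grem1 Ackr4 fibroblasts had 40.3 CPM (35.9 to 45.1) and 32.0 CPM (28.2 to 36.3). It was lowest in Scg2 Fibin fibroblasts, at 2.44 CPM (6 UMIs) and 7.08 CPM (12 UMIs), although Ptch1 was at 103 CPM there in both libraries. Neighbours in the order of the highest classes did not differ beyond their intervals.

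Gli2 (chr1:118834132-119053619, minus strand), the main activator downstream of SMO, had its highest value in smooth muscle-like cells of ApcMin at 48.3 CPM (12 UMIs, 24.9 to 84.3), while the same class of VApcMinL had 22.5 CPM (12 UMIs, 11.6 to 39.3). Adamdec1 fibroblasts had 31.4 CPM (26.7 to 36.7) and 24.0 CPM (20.7 to 27.7), and Lpl Penk Plau fibroblasts 13.7 CPM (11.6 to 16.1) and 8.40 CPM (6.36 to 10.9). Neighbours in the order of the classes rich in Gli2 did not differ beyond their intervals, and the smooth muscle-like values rest on few UMIs.

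Gli3 (chr13:15463235-15730026, plus strand), which acts mostly as a repressor when the signal is off, peaked in another subset. Its highest class was Lpl Penk Plau fibroblasts, the subset lowest in Ptch1, with 107 CPM (101 to 113) in ApcMin and 78.1 CPM (71.6 to 85) in VApcMinL. Against the other fibroblast-like cells this was 1.88-fold and 1.98-fold, where Gli1 stood at 0.360 and 0.387-fold and Foxf1 at 0.232 and 0.211-fold. The Ptch1-rich Mmp10 fibroblasts had Gli3 at 38.1 CPM (27.6 to 51.3) and 40.7 CPM (33.8 to 48.5), and Grem1 Ackr4 fibroblasts had 29.4 CPM (25.7 to 33.5) and 27.2 CPM (23.7 to 31.1). Over all fibroblast-like cells Gli3 had 68.6 CPM in ApcMin and 45.8 CPM in VApcMinL, and its log2 ratio of -0.58 (-0.66 to -0.50) was the lowest of the 9 members. Gli2 stood at 20.8 and 18.0 CPM, a log2 ratio of -0.21 (-0.35 to -0.07), and Gli1 at 25.4 and 27.4 CPM, a log2 ratio of 0.11 (-0.01 to 0.23).

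**Figure D3:**
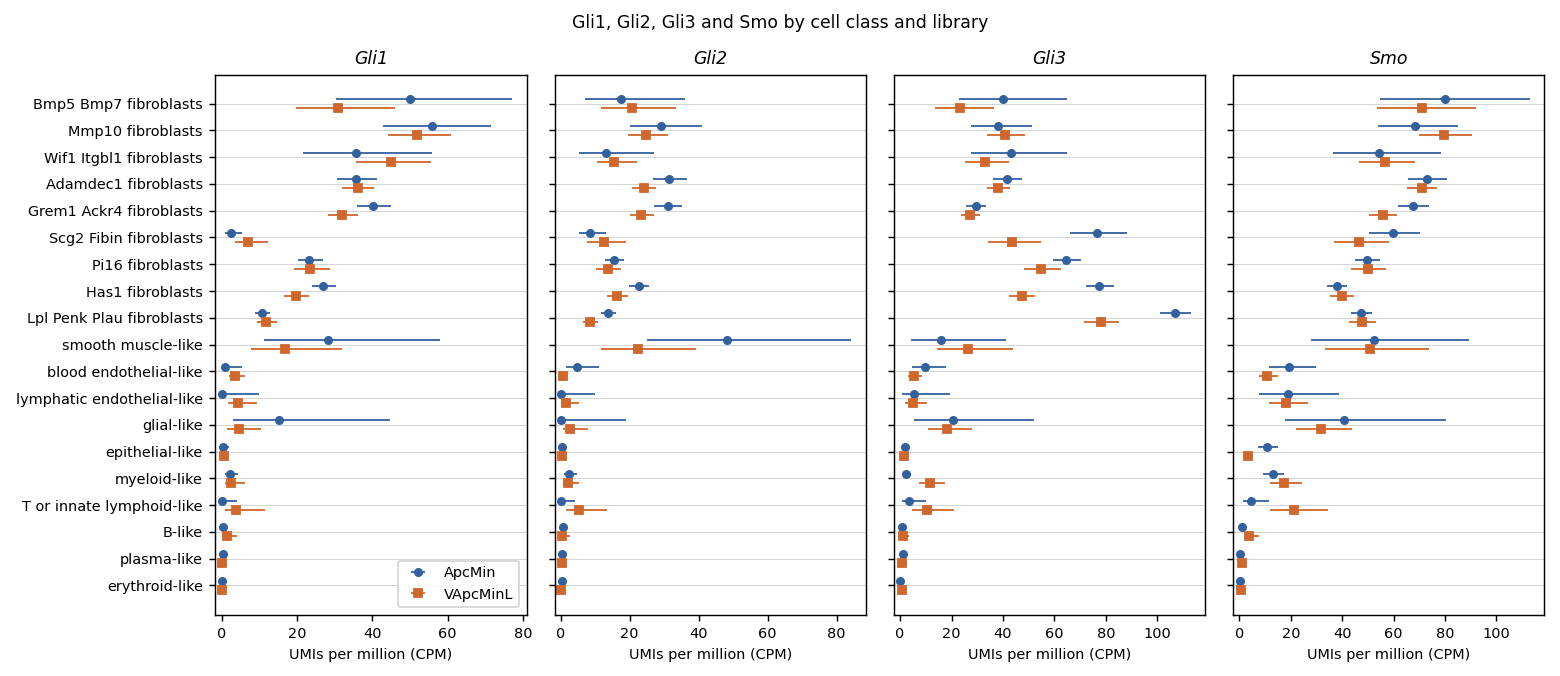
Levels of Gli1, Gli2, Gli3 and Smo in CPM on linear axes in each of 19 cell classes, drawn as for the target genes, with blue circles for ApcMin, orange squares for VApcMinL and exact Poisson 95% intervals. Gli3 is highest in Lpl Penk Plau fibroblasts at 107 and 78.1 CPM. Among the classes drawn, which leave out mesothelial-like cells, Smo is highest in Bmp5 Bmp7 fibroblasts of ApcMin (79.9 CPM) and Mmp10 fibroblasts of VApcMinL (79.6 CPM).

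Foxf1 and Foxl1 are neighbours on chromosome 8. Foxf1 lies at chr8:121084386-121088144 and Foxl1 at chr8:121127940-121130644, both on the plus strand, with 39795 bases between them that hold Mthfsd and Foxc2. Foxf1, needed for gut smooth muscle and vessels, was highest in Bmp5 Bmp7 fibroblasts at 339 CPM (285 to 401) in ApcMin and 357 CPM (316 to 402) in VApcMinL. Smooth muscle-like cells had 177 CPM (129 to 238) and 223 CPM (185 to 267), and Mmp10 fibroblasts 176 CPM (153 to 202) and 266 CPM (248 to 285). It was also read outside the mesenchyme, in blood endothelial-like cells at 74.0 CPM (58.4 to 92.5) and 75.0 CPM (66.0 to 85), where plasma-like cells had 1.21 and 1.74 CPM. In fibroblast-like cells as a whole Foxf1 had 64.7 and 105 CPM, a log2 ratio of 0.70 (0.63 to 0.76).

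Foxl1 was rare and narrow. It had 43 UMIs in 37 cells of ApcMin and 166 UMIs in 120 cells of VApcMinL. Mmp10 fibroblasts held 46.5% and 59.6% of these UMIs, and Bmp5 Bmp7 fibroblasts 27.9% and 15.7%. The level in Bmp5 Bmp7 fibroblasts was 29.9 CPM (12 UMIs, 15.5 to 52.3) in ApcMin and 33.5 CPM (26 UMIs, 21.9 to 49.1) in VApcMinL. In Mmp10 fibroblasts it was 17.7 CPM (20 UMIs, 10.8 to 27.4) and 33.0 CPM (99 UMIs, 26.8 to 40.2), so these subsets did not differ beyond their intervals in either library. Grem1 Ackr4, Pi16 and Lpl Penk Plau fibroblasts had 0 UMIs in both libraries, which for the first of these allows up to 0.399 and 0.382 CPM (3 counts of the total). Over all fibroblast-like cells Foxl1 had 0.818 CPM (38 UMIs) and 3.59 CPM (149 UMIs), a log2 ratio of 2.13 (1.61 to 2.69).

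Cells with a Foxl1 UMI were also rich in Ptch1. Among fibroblast-like cells of ApcMin Ptch1 was at 824 CPM in cells with a Foxl1 UMI and at 89.5 CPM in those without, with median depths of 12984 and 13322 UMIs. In VApcMinL the values were 957 and 180.2 CPM. The gap was smaller inside the subsets that hold most of these cells. In Mmp10 fibroblasts Ptch1 read 1266 against 649.7 CPM in ApcMin and 1206 (1133 to 1283) against 951 CPM (910.1 to 993) in VApcMinL. In Bmp5 Bmp7 fibroblasts it read 718 against 468 CPM and 777 (677 to 889) against 603 CPM (537 to 675). Gli1 did not show this inside Mmp10 fibroblasts of VApcMinL, at 51.6 CPM (37.3 to 69.5) with a Foxl1 UMI and 52.1 CPM (43.0 to 62.7) without. A cell without a UMI may still express so rare a gene, and these are cells of 1 library, so no test was made.

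Several members stood higher in Mmp10 fibroblasts than in the rest. Among the 8 members that reached 20 UMIs over the fibroblast-like cells of each library, 4 were 2-fold or more higher in Mmp10 than in the other fibroblast-like cells, namely Gli1, Ptch1, Foxf1 and Foxl1. Foxl1 had only 18 UMIs in ApcMin outside the Mmp10 subset and so reached 20 through it, and without Foxl1 the count is 3 of 7. Of all genes so counted, 12.9% in ApcMin and 10.2% in VApcMinL were as much higher. Ptch1 stood at 9.32-fold (8.64 to 10.0) in ApcMin and 7.14-fold (6.83 to 7.47) in VApcMinL. In Bmp5 Bmp7 fibroblasts 3 of 8 members were as much higher in both libraries, Ptch1, Foxf1 and Foxl1, where the share of all genes was 14.4% and 13.9%. Ptch1 there was 6.01-fold and 3.36-fold higher.

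Between the libraries 4 of 9 members were 2-fold or more higher in VApcMinL over all fibroblast-like cells, Ptch1, Hhip, Ihh and Foxl1, and 0 were as much lower. Of 15888 genes counted the same way 9.95% were past 2-fold in either direction, and the median log2 ratio of all genes was 0.04. Ihh entered the count of members from only 6 UMIs in ApcMin and 19 UMIs in VApcMinL. It passed the UMI limit for a ratio only through the UMIs of VApcMinL, where it was higher. Its 0.129 and 0.458 CPM lay below the 4.98 and 27.1 CPM of the empty droplets. Subtracting free RNA, as given below, removed all Ihh UMIs and left it without a ratio. Within subsets fewer members passed. In Wif1 Itgbl1 fibroblasts 2 of 7 members did (Ptch1 and Hhip, with 15.2% of all genes past 2-fold). In Lpl Penk Plau fibroblasts 1 of 7 did (Hhip, 5.25% of all genes), and in Mmp10 fibroblasts 1 of 8 (Hhip, 6.89%). No member passed in Adamdec1 (0 of 7, 6.59% of all genes), Bmp5 Bmp7 (0 of 7, 15.5%), Grem1 Ackr4 (0 of 7, 4.28%), Has1 (0 of 7, 6.91%), Pi16 (0 of 7, 5.37%) or Scg2 Fibin fibroblasts (0 of 5, 9.08%).

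Outside the fibroblasts most ratios rested on few UMIs. In smooth muscle-like cells Gli2 was 2-fold or more lower (1 of 5 members, 13.7% of all genes), from 24 UMIs with a log2 interval of -2.38 to 0.18. In epithelial-like cells Hhip and Foxf1 were higher and Smo was lower (3 of 6 members, 25.7% of all genes), where the log2 intervals of Hhip (-0.60 to 7.41) and Foxf1 (-0.27 to 3.72) cover no difference. In blood endothelial-like cells Hhip was higher (1 of 5, 9.87%). None passed in lymphatic endothelial-like (0 of 2, 11.8%) or glial-like cells (0 of 3, 15.3%). In T or innate lymphoid-like cells Ptch1, Hhip and Smo were higher (3 of 3, 12.9% of all genes), at log2 ratios of 1.38, 1.30 and 2.22 from 17 and 38, 9 and 19, and 4 and 16 UMIs. In myeloid-like cells Gli3 at 2.43 and Foxf1 at 1.36 were higher (2 of 5, 7.87%), and in plasma-like cells Ptch1 at 1.26 (1 of 1, 12.1%). B-like cells had none past 2-fold (0 of 1, 6.91%). Each member named here as higher, except Foxf1 in myeloid-like cells, had under 20 UMIs in ApcMin. It reached 20 only with the UMIs of VApcMinL, where it was higher, so these counts are partly set by that limit. The intervals of the members past 2-fold in the immune-like classes lay above 0, but they count each UMI as independent. In T or innate lymphoid-like cells Hhip had its 9 UMIs of ApcMin in 1 cell and its 19 of VApcMinL in 8 cells. Smo had its 4 and 16 UMIs there in 2 and 8 cells. The others past 2-fold had a UMI in 6 or more cells of each library. The empty droplets of VApcMinL also held more Ptch1 (29.0 and 39.9 CPM) and Hhip, whose part in these classes was not tested.

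Hhip was past 2-fold in more classes than any other member. Its log2 ratio was 1.74 in Lpl Penk Plau, 1.62 in Wif1 Itgbl1 and 1.59 in Mmp10 fibroblasts. It was 0.77 in Adamdec1, 0.73 in Has1, 0.72 in Grem1 Ackr4 and 0.67 in Pi16 fibroblasts, and all 7 intervals lay above 0. In smooth muscle-like cells, its richest class, it was -0.14 (-0.49 to 0.21), an interval that covers no difference. The free RNA of empty droplets also held more of it, at 7.75 CPM in ApcMin and 15.5 CPM in VApcMinL.

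Ptch1 was less far apart in 8 of the 9 subsets than over all fibroblasts, the exception being Wif1 Itgbl1. Its log2 ratio was 1.59 (1.19 to 2.02) in Wif1 Itgbl1 fibroblasts, 0.72 in Pi16, 0.44 in Adamdec1 and in Mmp10, 0.43 in Lpl Penk Plau, 0.25 in Bmp5 Bmp7, 0.21 in Has1, 0.03 in Grem1 Ackr4 and 0.00 in Scg2 Fibin fibroblasts. In the Wif1 Itgbl1 subset the 7 gastric epithelial genes moved with Ptch1, from 1.88 to 55.5 CPM in sum, and their part in its ratio was not tested. Foxl1 had 0.90 (0.19 to 1.67) in Mmp10 and 0.16 (-0.88 to 1.28) in Bmp5 Bmp7 fibroblasts. Foxf1 had 0.60 in Mmp10, 0.22 in Adamdec1 and 0.07 in Bmp5 Bmp7 fibroblasts. Gli3 was lower in VApcMinL in several Gli3-rich subsets, with -0.81 in Scg2 Fibin, -0.71 in Has1, -0.45 in Lpl Penk Plau and -0.23 in Pi16 fibroblasts. Gli1 had -0.45 in Has1 and -0.33 in Grem1 Ackr4 fibroblasts, against the weakly positive value over all fibroblasts.

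**Figure D4:**
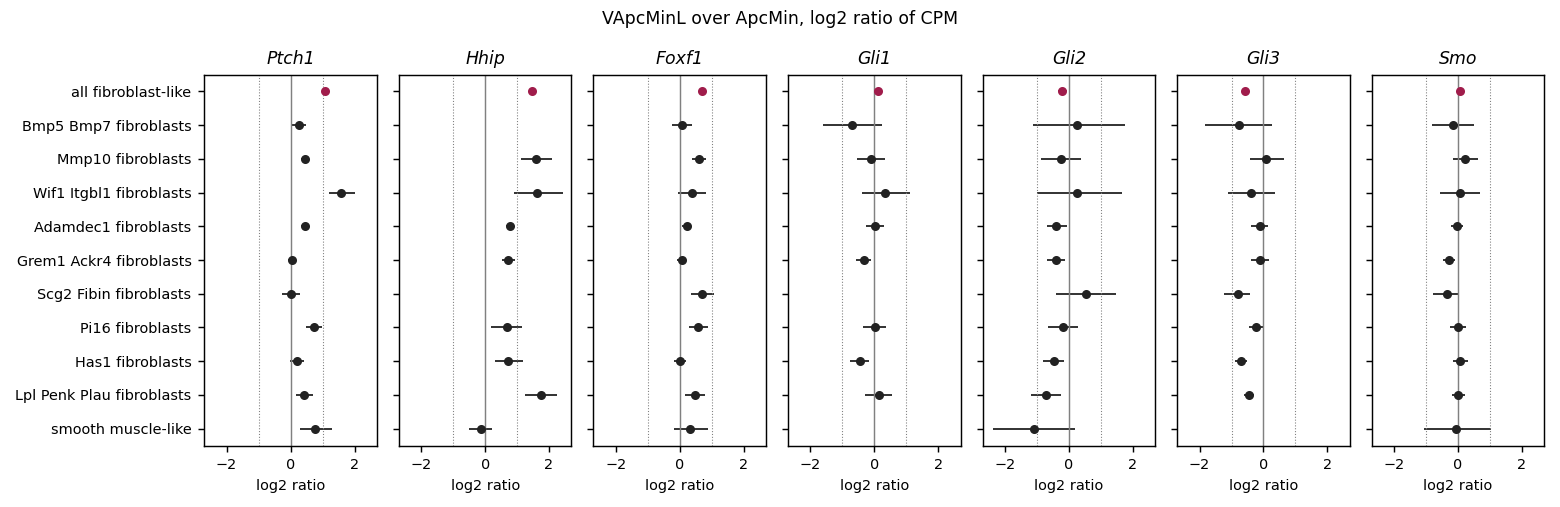
Log2 ratio of VApcMinL over ApcMin for 7 members (panels) over all fibroblast-like cells in red, in each of the 9 fibroblast subsets and in smooth muscle-like cells, with exact 95% intervals and dotted lines at 2-fold either way. Ptch1 is at 1.09 over all fibroblast-like cells and at 0.44 in Mmp10 fibroblasts, and Hhip is at 1.47 and 1.59.

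The make-up of the fibroblasts moved with the library as well. Mmp10 and Bmp5 Bmp7 fibroblasts together were 3.79% of fibroblast-like cells in ApcMin (3.17 to 4.50, exact binomial interval) and 9.98% in VApcMinL (9.03 to 11.0). With Adamdec1 and Wif1 Itgbl1 fibroblasts added the shares were 16.5% (15.3 to 17.8) and 36.3% (34.7 to 37.9). The sort, the region of gut taken and the genotype cannot be told apart as sources of these shares with 1 library each.

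Weighting the subset levels of VApcMinL by the subset shares of ApcMin, a step added after seeing the data, gives the ratios at equal subset shares. It treats a subset as the same cells in both libraries, and a cause of the ratios was not tested. Ptch1 then read 123 CPM in place of 207, and its log2 ratio went from 1.09 to 0.34. Foxl1 went from 2.13 to 0.73 and Foxf1 from 0.70 to 0.24. Hhip kept more, from 1.47 to 0.86. With the shares of VApcMinL given to ApcMin instead, the log2 ratios were 0.40 for Ptch1, 0.78 for Foxl1, 0.26 for Foxf1 and 0.89 for Hhip. Gli3 stayed negative either way, at -0.43 and -0.39, and Gli2 moved from -0.21 to -0.38 and -0.36. Gli1 turned from 0.11 to -0.15 and -0.13. Ihh, from 6 and 19 UMIs, had 1.91 and 2.06. At the ApcMin shares it was the 1 member past 2-fold between the libraries. Leaving out the fibroblast-like cells with a Barx1 or Six2 UMI, also added after seeing the data, gave log2 ratios of 0.96 for Ptch1, which is then under 2-fold, 1.33 for Hhip, 2.24 for Foxl1, 0.64 for Foxf1 and -0.56 for Gli3.

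**Figure D5:**
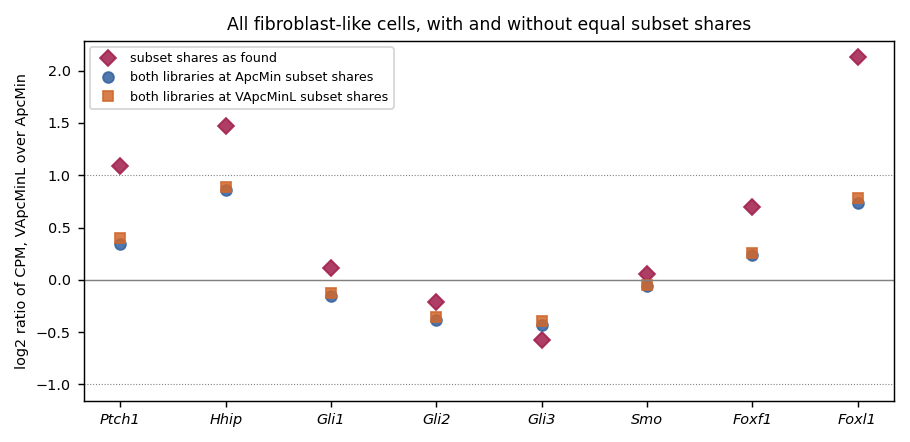
Log2 ratio of VApcMinL over ApcMin over all fibroblast-like cells for 8 members, as found (diamonds), with the subset shares of ApcMin (circles) and with those of VApcMinL (squares). Ptch1 moves from 1.09 to 0.34 and 0.40, and Hhip from 1.47 to 0.86 and 0.89.

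The rest of the pathway was read from lists. Over all fibroblast-like cells 0 of 6 counted genes of ligands and their release passed 2-fold (median log2 ratio 0.21), 0 of 7 relay genes (median -0.06) and 0 of 3 Fox factors (median 0.75). Of 6 niche genes 2 were higher, Bmp5 at 1.35 and Myocd, a smooth muscle coactivator, at 1.75 (median 0.40). Of 5 regional genes 2 were lower, Barx1 from 38.4 to 2.1 CPM and Six2 from 10.6 to 0.844 CPM. RNA of the intestinal epithelium was also more frequent in VApcMinL fibroblasts, with 6 of 6 enterocyte genes higher (median 4.03) and 3 of 3 counted goblet genes (median 1.45). The 2 counted gastric genes were higher too (median 1.27), but the 7 gastric genes summed to 2.18 CPM in ApcMin and 1.87 CPM in VApcMinL once Wif1 Itgbl1 fibroblasts were left out. With 5% of each total subtracted at the profile of the empty droplets the log2 ratio was 1.10 for Ptch1, 1.48 for Hhip and 2.15 for Foxl1. Then 3 members in place of 4 were past 2-fold, since all Ihh UMIs were subtracted and Ihh had no ratio. Genes of dissociation and stress did not move that far (0 of 6, median 0.11). Several pathway genes peaked in the same Mmp10 subset as Ptch1. These were Scube1, which helps release ligand, at 396 and 373 CPM, Gpr161, a brake on the pathway at the cilium, at 43.4 and 36.0 CPM, and Bmp4, a Hedgehog-induced signal of the gut mesenchyme, at 656 and 575 CPM. Foxf2, the paralog of Foxf1, peaked with it in Bmp5 Bmp7 fibroblasts at 147 and 164 CPM.

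The coreceptors, which hold ligand for PTCH1, lay elsewhere. Boc was highest in Lpl Penk Plau fibroblasts, the Gli3-rich subset, at 107 and 94.6 CPM, and had 8.86 and 7.66 CPM in Mmp10 fibroblasts. Gas1 had 29.2 and 19.7 CPM in Mmp10 fibroblasts, against 621 and 377 CPM in Has1. Cdon had 0.886 CPM and 0 UMIs in Mmp10 fibroblasts and 139.7 and 111 CPM in Pi16. Gas1 and Cdon were chosen after their values were seen. In both libraries the Ptch1-rich Mmp10 and Bmp5 Bmp7 fibroblasts were the lowest subsets for Boc and for Gas1.

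Likeness of layout was measured as Pearson r of log2(CPM + 1) over 39 profiles, each a class in a library of at least 20 cells, among 13661 genes. Profiles share libraries, depth and their position among fibroblast and other classes, so r is a description only. For Ptch1 the most alike genes were Abca5 (0.911), Dkk3 (0.909) and Eif4e3 (0.905). Hhip stood more alone, with Bhlhe22 (0.856), Adamts19 (0.841) and Cyp7b1 (0.815). For Foxl1 they were Col6a4 (0.891), Bmp5 (0.877), which also names a subset, and Slc16a12 (0.844). Foxf1 had Nkx2-3 (0.942), Nfatc4 (0.913) and Pdgfrb (0.909).

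For Gli1 the most alike were Arhgap28 (0.920), Podxl2 (0.911) and Nfatc4 (0.905), and for Gli2 Gpr27 (0.95), Bnc2 (0.931) and Nfatc4 (0.923). Gli3 had Mxra8 (0.966), Mmp23 (0.959) and Sdc2 (0.954), and Smo had Rarres2 (0.961), Ltbp3 (0.960) and Efemp2 (0.959). Ihh was like epithelial genes, with Tmem45b (0.966), Atp10b (0.960) and Slc44a4 (0.958). Among the members r was 0.88 for Ptch1 with Foxf1, 0.89 for Gli1 with Gli2, 0.89 for Gli3 with Smo, 0.82 for Gli3 with Gli1, 0.68 for Gli3 with Ptch1 and 0.73 for Ptch1 with Foxl1. Ihh had a negative r with each of the others, from -0.36 with Gli3 to -0.16 with Foxl1.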

How the data were processed

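Stromal cells of 2 libraries, 1 per genotype, were analysed from UMI counts per gene and barcode, which the authors deposited as raw, unfiltered matrices. Per the labels and the study's methods they were made with Cell Ranger 2.1.1 on mm10 and analysed in Seurat 3.1.1, while the matrix header names software version 3.1.0. The matrices summed to 93203061 UMIs in ApcMin and 101609269 in VApcMinL. Barcodes with at least 3000 UMIs (6674 and 7100) were kept unless over 20% mitochondrial (75 and 531). Cells were integrated and clustered in Seurat 5.3.0 (R 4.3.3, Louvain resolution 1.0) without the members and the Hedgehog and Fox lists, and clusters were named "-like" only with at least 3 detected markers. Doublets were kept, since Scrublet called 0 of 6599 and 79 of 6569 cells, and an alternative left out the highest scores. UMIs were summed per class and library. With 1 library per genotype no test was made, and ratios were formed for classes of at least 20 cells in each library and genes with at least 20 UMIs there over both libraries, "past 2-fold" being a size and not a test. Fibroblast subsets were compared with the other fibroblast-like cells of the same library, for genes that reached 20 UMIs over its fibroblast-like cells. Intervals are exact Poisson or binomial at 95%, and PCR copies are already collapsed by UMI. A count of 0 allows up to 3 counts of the total. Members and lists were chosen with earlier results of these data known. Beyond the members, the 3 genes with the highest r with each were named, and list genes past 2-fold over fibroblast-like cells or highest in the class of a member. The list of receptors and coreceptors is not reported here as a whole. Fendrr has no row in the counts used here. Alternatives were other UMI and mitochondrial limits, trimming by detected genes, doublets left out, no integration, resolution 0.2, a marker call per cell, thinning to 3000 UMIs, other totals, means over cells, and free RNA subtracted.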

Additional observations from a re-analysis of the deposited data

Results flagged for a closer look

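For 2 members the log2 ratio of VApcMinL over ApcMin pointed in opposite directions in different classes, with an interval above 0 in some and below 0 in others. The difference between the classes was not tested. Smo had 2.22 in T or innate lymphoid-like cells, from 4 UMIs (4.53 CPM) in ApcMin and 16 UMIs (21.1 CPM) in VApcMinL, and -1.61 in epithelial-like cells, from 31 and 52 UMIs. Of those 31 UMIs 20 lay in 6 cells of gastric kind, and in enterocyte-kind cells Smo had 5.40 and 2.82 CPM with overlapping intervals. Gli3 had 2.43 in myeloid-like cells, from 7 UMIs (2.14 CPM) and 22 UMIs (11.5 CPM), and -0.81 in Scg2 Fibin fibroblasts, from 188 and 74 UMIs. The positive ratios of Smo and Gli3 reached 20 UMIs only with the UMIs of VApcMinL, where these genes were higher.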

How the results depend on the processing

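Of 102 ratios between the libraries 19 were past 2-fold, and in 234 recomputations of these 223 were still past it and 233 kept their direction. Of 135 ratios between fibroblast subsets 53 were past 2-fold, and in 625 recomputations 599 were still past it and 623 kept their direction. Recomputations that gave no ratio are left out of these numbers, as where a class was not formed or held too few cells or UMIs. With a marker call per cell Ptch1 in plasma-like cells turned to a log2 ratio of -0.18. Foxl1 of VApcMinL in Adamdec1 fibroblasts against other fibroblast-like cells turned from -1.87 to 4.30 at resolution 0.2 and 2.85 with a marker call per cell. At resolution 0.2 the Adamdec1 class (487 and 1126 cells) also held all 96 and 291 Mmp10 cells, and neither Mmp10 nor Bmp5 Bmp7 fibroblasts formed a class. The count of members 2-fold or more higher in VApcMinL over all fibroblast-like cells went from 4 to 1 at ApcMin subset shares, an alternative chosen after seeing the data. That 1 was Ihh, from 6 and 19 UMIs. The count higher in Mmp10 fibroblasts of both libraries went from 4 to 2 after thinning. A member could drop out by falling under 20 UMIs or under 2-fold, and these ways were not separated. The count higher in Adamdec1 fibroblasts went from 1 to 4 at resolution 0.2 and to 4 with a marker call per cell. Shares of fibroblast-like cells with a Ptch1 UMI fell to 21.4% and 34.2% when thinned. Other causes were not tested. No paired analysis was possible because there is only 1 library per genotype. Depth limits Foxl1 (43 and 166 UMIs), Gli2 in smooth muscle-like cells and every member in immune-like classes.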

Other observations

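In Bmp5 Bmp7 fibroblasts, where Foxf1 was highest, it had a log2 ratio between the libraries of 0.07 (-0.23 to 0.38), while regional factors of the mesenchyme were further apart. Barx1 was at 292 CPM (241 to 349.9) in this subset in ApcMin and at 5.15 CPM (1.40 to 13.2) in VApcMinL, and Nkx2-3, a factor of the gut mesenchyme, at 79.9 CPM (54.6 to 113) and 495 CPM (447 to 547). Wnt5a, a Wnt ligand, was highest there at 309 CPM (257 to 369) and 489.6 CPM (442 to 541). Nkx2-3 itself peaked in the Ptch1-rich Mmp10 fibroblasts, at 644 CPM (598 to 692) and 756 CPM (726 to 788), where Barx1 had 0 UMIs in ApcMin and 0.333 CPM in VApcMinL.

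Foxc2, which lies between Foxf1 and Foxl1 on chromosome 8, did not share their layout. Lymphatic endothelial-like cells, in whose vessels it is known to shape valves, had it at 29.6 CPM (14.8 to 52.9) and 45.7 CPM (35.1 to 58.5), and each fibroblast subset had at most 3.2 CPM. The barcodes left out as over 20% mitochondrial also held Ihh, at 49.8 CPM (39 UMIs in 75 barcodes) in ApcMin and 63.4 CPM (331 UMIs in 531 barcodes) in VApcMinL.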
